A study of Rattus norvegicus with 24 samples.

Results

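Elastin and 9 genes of elastic fibre assembly were followed across 24 samples of rat lung tissue, as 10 of the 30667 genes in the deposited table. They are Eln, Fbn1, Fbn2, Fbln1, Fbln5, Lox, Loxl1, Mfap4, Ltbp4 and Emilin1, and all 10 rows were found. The genes were chosen by name, for their function, with their values in these samples by letter and by number already known. Their pattern by letter and by number is therefore a description, and each count of them is set beside the same count over all genes.

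Elastic fibres give the lung its recoil. Fibroblasts, myofibroblasts and smooth muscle cells secrete tropoelastin, the soluble product of Eln, which is laid down on a scaffold of fibrillin microfibrils with the help of fibulins and is then cross-linked by lysyl oxidases into an insoluble, long-lived polymer. In the lung most elastin is made during the growth of the alveoli, and its synthesis is low in the healthy adult.

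The study set up a rat model of lung cancer with smoky coal, which burns with a smoke that carries polycyclic aromatic hydrocarbons, and mRNA libraries were sequenced on an Illumina instrument. Each title joins 1 of 4 letters (A, B, C, G) to a number between 1 and 6, so there are 4 letter groups with 6 samples in each. Every sample has the same labels, lung tissue and smoky coal, and the labels give no strain, age, sex, dose, time point or control, and no meaning for a letter or a number. Nothing in them says that samples came from separate animals, so p-values measure only the spread between these samples, which may be technical.

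Values are read counts per gene that the authors had adjusted toward a common library size, called normalized counts here. Their sum per sample was 61717516 to 66007148, and the depth before that adjustment is unknown. Alveolar epithelial markers, 8 genes with Sftpc among them, summed to between 1272910 and 1833240 normalized counts in each sample, so the lung label was met in all 24. Samples A4 and B4 stood apart in genes of other tissues: 7 skeletal muscle genes summed to 76691 in A4 and 18859 in B4, and to at most 3621 in the other 22 samples. In A4, 6 squamous epithelium genes also summed to 17946, against at most 1813 in those 22. The 10 elastic fibre genes summed to 301367 in A4 and 289569 in B4, inside the 250680 to 590717 of the other 22. For these 10 genes the tests, scores and number differences below were also computed without both. Results of the other gene lists, all counts without overlap and all correlations include A4 and B4. In tissue samples, fewer cells of a type and less RNA per cell cannot be told apart.

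The first question was whether the elastic fibre genes differed between the letters. Of the 10 genes, 0 passed an adjusted p of 0.05 in the limma F test over the 4 letters, where 0.00652% of all genes did. In the 6 pairs of letters 0 of 10 passed as well. The share of all genes called was 0% in B against A, 0% in C against A, 0% in C against B, 0.00652% in G against A, 0.00326% in G against B and 0.00652% in G against C. At an unadjusted p under 0.05 in this fit, which has no block, the count was 0 of 10 in every pair. Of all genes 3.58%, 2.98%, 1.82%, 8.15%, 3.67% and 4.03% passed in the same order of pairs. With the sample number as a block the count at an adjusted p of 0.05 was again 0 of 10 in every pair. Of all genes 1.27% passed in G against A, 0.00652% in G against B, 0.0359% in G against C and 0% in the other 3 pairs. Unadjusted, the blocked limma fit gave p under 0.05 in some pairs. In G against A these were Lox (0.000947), Fbln5 (0.0164), Fbln1 (0.0233), Mfap4 (0.0252) and Fbn2 (0.0479). In B against A they were Lox (0.00416) and Fbln5 (0.0322), in C against A Lox (0.0153) and in G against B Fbln1 (0.0245). The share of all genes at that level was not computed, so nothing about the 10 genes as a group is read from these p-values. For all 10 genes the ranges of every 2 letters overlapped, and 1.05% of all genes had at least 1 pair of letters without overlap.

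Eln itself, the elastin gene, averaged 77244 ± 63130 normalized counts in letter A, 85616 ± 67554 in C, 100052 ± 68918 in G and 109255 ± 92594 in B (SD, n = 6). Within a letter the spread was wide. The lowest, median and highest values were 39371, 50745 and 202776 in A, 39186, 59969 and 245687 in B, 36123, 63138 and 217504 in C, and 44222, 64736 and 220861 in G. The log2 difference of Eln was 0.41 in G against A, with a 95% interval from -0.66 to 1.47 (limma, adjusted p = 0.873), and 0.37 in B against A, with an interval from -0.70 to 1.43. Neither interval excludes a doubling, but both come from the fit without the number as a block. With the block the standard error of each difference was 0.28 instead of 0.52, and intervals were not computed for that fit.

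The other 9 genes were less spread, and their intervals, also from the fit without the number as a block, were narrower. Emilin1, whose product sits at the boundary of elastin and microfibrils, had 10009 ± 1327 normalized counts in A and 10353 ± 843 in G (SD, n = 6), a log2 difference of 0.05 with a 95% interval from -0.14 to 0.25. Lox, the founding lysyl oxidase, had the smallest adjusted p of the 60 gene and pair combinations. It stood at 4686 ± 1552 normalized counts in A and 5807 ± 928 in G, a log2 difference of 0.35 with a 95% interval from -0.02 to 0.72 (limma, adjusted p = 0.633). With the number as a block the standard error of this Lox difference was 0.09 instead of 0.18 (limma, adjusted p = 0.061). By mean, A was the lowest letter for 9 of the 10 genes and C for Emilin1, while G was the highest for 7 and B for Eln, Fbn1 and Loxl1. No neighbours in these orders differed beyond their spread. The letter means lay closest together for Emilin1, where the highest was 1.07 times the lowest, and farthest apart for Fbn2, at 25.9 normalized counts in A and 38.9 in G.

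**Figure D1:**
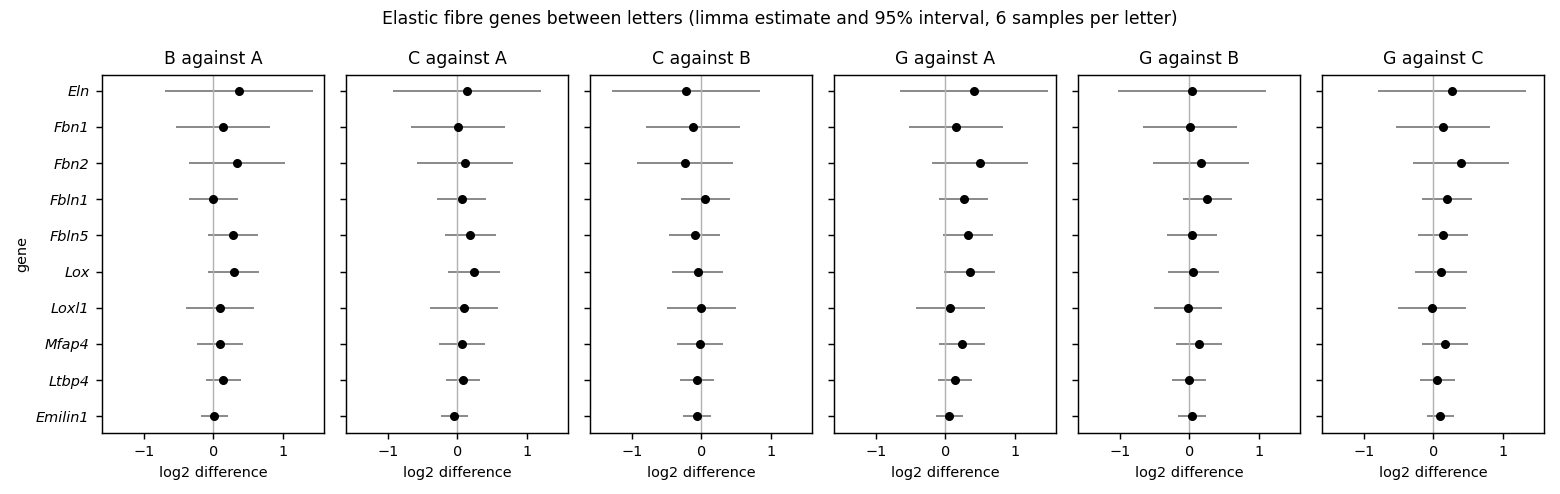
Log2 difference on the log2(normalized count + 1) scale for each of the 10 elastic fibre genes in the 6 pairs of letters (points, limma estimates without the number as a block; bars, 95% intervals; 6 samples per letter). Every interval includes 0, and those of Eln are the widest, from -0.66 to 1.47 in G against A.

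The sample number separated the samples far more than the letter. Numbers held a median of 65.3% of the log2 variance of the 10 genes, against a median of 37.1% over all genes. For letters these medians were 8.58% and 9.45%. The share between numbers lay above the median of all genes for 10 of 10, from 49.9% for Fbln5 to 90.9% for Fbn1. In a limma F test for the number, with the letter in the model, 10 of the 10 genes had an adjusted p under 0.05, where 31.5% of all genes did. Because the genes were proposed with this pattern in view, that count is given only as a description.

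Samples numbered 1 were high in 8 of the 10 genes in every letter. For Eln, Fbn1, Fbn2, Fbln5, Lox, Loxl1, Mfap4 and Emilin1 the 4 samples numbered 1 lay above all 16 samples numbered 3 to 6, as they did for 2.09% of all genes. For 0 of the 10 genes did they lie below all 16, against 1.47% of all genes. The median log2 difference between number 1 and numbers 3 to 6 of the same letter was 0.63 over the 10 genes and -0.01 over all genes. The range numbered 3 to 6 was chosen as the reference with these values known, and samples numbered 2 are described on their own.

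**Figure D2:**
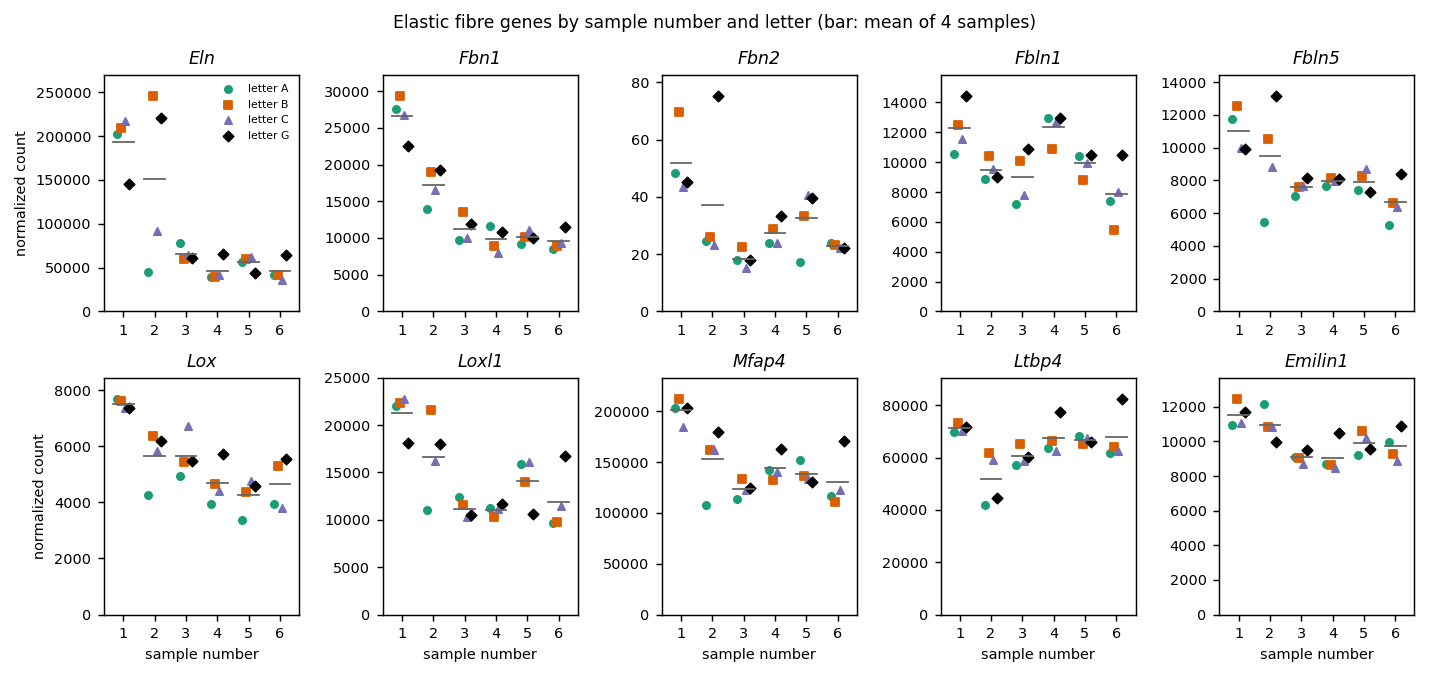
Normalized counts of the 10 elastic fibre genes in all 24 samples, by sample number (x axis) and letter (colour and marker), with bars at the mean of the 4 samples of a number. In Eln, the samples A1, B1, C1 and G1 and the samples B2 and G2 lie at 144861 normalized counts or more, and the 16 samples numbered 3 to 6 at 78243 or less.

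The elastin gene showed the widest range. Eln had 202776 normalized counts in A1, 208928 in B1, 217504 in C1 and 144861 in G1. Among the 16 samples numbered 3 to 6 the lowest value was 36123, the median 57880 and the highest 78243. The number 1 samples therefore stood clear of these in each letter, and the ratio to the mean of numbers 3 to 6 was 4.26 in C, 4.16 in B, 3.77 in A and 2.47 in G. On the log2 scale the difference was 1.88 ± 0.38 (SD over 4 letters).

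Samples numbered 2 did not behave alike in Eln. B2 had 245687 and G2 220861 normalized counts, the highest values of the 24, C2 had 92010, and A2 had 45384. A2 thus fell among the samples numbered 3 to 6, C2 lay just above them, and B2 and G2 lay above every number 1 sample. The highest of these 4 was 5.41 times the lowest. Over all 6 numbers no neighbours in the order of Eln means were without overlap.

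Of the microfibril scaffold, Fbn1 encodes fibrillin-1, the main fibrillin of adult tissue, which is mutated in Marfan syndrome. It had 27587 normalized counts in A1, 29333 in B1, 26774 in C1 and 22509 in G1. The samples A2, B2, C2 and G2 followed at 13887, 19036, 16599 and 19236, and numbers 3 to 6 ranged from 7996 to 13534, with a median of 9961. Fbn1 was thus the one gene of the 10 in which numbers 1, 2 and 3 to 6 formed 3 steps without overlap. Its log2 difference from numbers 3 to 6 was 1.39 ± 0.24 for number 1 and 0.76 ± 0.17 for number 2 (SD over 4 letters).

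Fbn2, which encodes fibrillin-2, a fibrillin of developing tissue, ranged from 15.3 to 75.2 normalized counts. Its values in A1, B1, C1 and G1 were 48.3, 69.7, 43.3 and 45.3, and in numbers 3 to 6 at most 40.8. G2 was the highest of the 24 at 75.2, while A2, B2 and C2 had 24.6, 25.9 and 23.1. As in Eln, G2 stood with or above the number 1 samples, but B2, high in Eln, was not high in Fbn2.

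Mfap4 encodes a microfibril-associated glycoprotein that binds tropoelastin and fibrillin. It had 203014 normalized counts in A1, 211807 in B1, 184949 in C1 and 203222 in G1, and 111152 to 170703 in numbers 3 to 6. The 4 values agree within 1.15 times, and the log2 difference from numbers 3 to 6 was 0.59 ± 0.12 (SD over 4 letters). A2, at 107531, was the lowest of the 24 samples in this gene.

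Ltbp4 was the exception among the scaffold genes. Its product, a latent TGF-beta binding protein, is needed to deposit fibulin-5 and elastin on microfibrils. It had 69829 to 73185 normalized counts in number 1 and 57141 to 82347 in numbers 3 to 6, so 0 of the 4 number 1 samples lay above all 16. The log2 difference of number 1 was 0.12 ± 0.08 (SD over 4 letters). Samples numbered 2 lay below the mean of numbers 3 to 6 in all 4 letters, at 42066 in A2, 61976 in B2, 58939 in C2 and 44742 in G2, a log2 difference from numbers 3 to 6 of -0.35 ± 0.31. G2, among the highest samples in Eln, was thus among the lowest in Ltbp4.

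**Figure D3:**
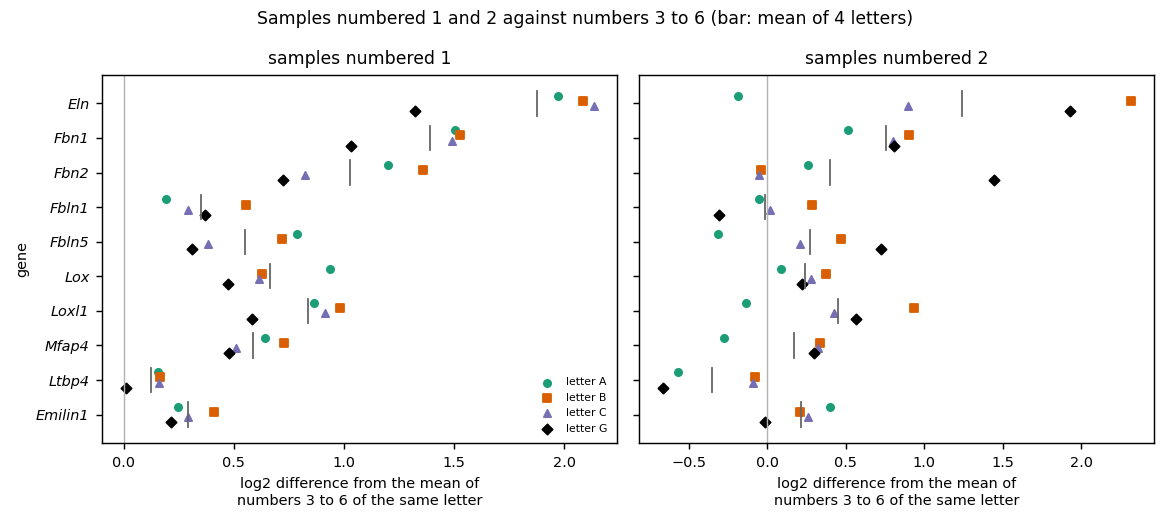
Log2 difference of samples numbered 1 (left) and 2 (right) from the mean of numbers 3 to 6 of the same letter, for each of the 10 elastic fibre genes (points, 1 per letter; bars, mean of the 4 letters). All number 1 points lie above 0, from 0.01 for Ltbp4 in G to 2.13 for Eln in C, while number 2 points lie on both sides of 0 in 7 genes, above it in Fbn1 and Lox, and below it in Ltbp4.

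Among the adaptors that join tropoelastin to microfibrils and cells, Fbln5 encodes fibulin-5, which brings tropoelastin and the lysyl oxidases together. It had 11714 normalized counts in A1, 12551 in B1, 9948 in C1 and 9885 in G1, against 5260 to 8700 in numbers 3 to 6. In number 2 the order of letters was that of Eln except that G2 came first, with 5449 in A2, 8818 in C2, 10532 in B2 and 13142 in G2. Emilin1 differed by less: number 1 ranged from 10945 to 12437 and numbers 3 to 6 from 8464 to 10874, a log2 difference of 0.29 ± 0.09. A2, low in Eln and Fbln5, was at 12174 in Emilin1, the highest of the samples numbered 2.

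Fbln1, which encodes fibulin-1, a fibulin of basement membranes and elastic fibres, did not follow number 1 alone. It had 10548 to 14431 normalized counts in number 1, and 5 of the 16 samples numbered 3 to 6 lay above the lowest of these. Number 4 had the highest mean of the 6 numbers, at 12375 ± 1023, against 12262 ± 1655 in number 1 and 7839 ± 2065 in number 6 (SD, n = 4). Samples numbered 2 were not raised, with a log2 difference from numbers 3 to 6 of -0.01 ± 0.24.

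Both cross-linking enzymes were higher in number 1. Lox had 7673 normalized counts in A1, 7597 in B1, 7358 in C1 and 7368 in G1, values that agree within 1.04 times, against 3359 to 6704 in numbers 3 to 6. Its log2 difference was 0.66 ± 0.20 (SD over 4 letters). In number 2, Lox lay inside the range of numbers 3 to 6 in all 4 letters, at 4256 to 6377.

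Loxl1 encodes the lysyl oxidase-like enzyme that is tied to elastic fibre upkeep. It had 22048 normalized counts in A1, 22291 in B1, 22733 in C1 and 18157 in G1, against 9703 to 16759 in numbers 3 to 6, a log2 difference of 0.84 ± 0.18. Its number 2 samples split as Eln did, with B2 at 21571 and G2 at 17956 above all 16 samples numbered 3 to 6, and C2 at 16185 and A2 at 11025 inside their range.

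The 10 genes varied together across the samples, though unequally. Over 24 samples Pearson's r of log2 values was positive in 45 of the 45 gene pairs, with a median of 0.61. Eln went most closely with Fbn1 (r = 0.90, Spearman's rho = 0.76) and Loxl1 (r = 0.89, rho = 0.80), and least with Ltbp4 (r = 0.04, rho = 0.14) and Fbln1 (r = 0.29, rho = 0.18). Much of this rests on the high samples numbered 1 and 2. Among the 16 samples numbered 3 to 6 the median was 0.33, 40 of 45 pairs were positive, and Eln with Fbn1 fell to 0.48. All values come from the same libraries and the same adjustment of depth, so these are descriptions without a test.

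Likeness to Eln in log2 values over the 24 samples was computed for 17561 genes with a mean of at least 50. Outside the elastic fibre genes, those most like it included Ppic, Sparc, Nrep, Mmp2, Ltbp2, Nid1, Bgn, Col3a1 and Nckap5l. Their r was 0.93 for Ppic, which encodes a peptidyl-prolyl isomerase of the secretory pathway, and for Sparc, which encodes a collagen-binding matrix protein, and 0.90 for Nckap5l. Spearman's rho over these 9 lay between 0.75 for Mmp2 and 0.85 for Sparc. Within the 16 samples numbered 3 to 6, r was 0.69 for Col3a1, the gene of type III collagen, 0.66 for Sparc and 0.36 for Nid1, the gene of the basement membrane protein nidogen-1. In these 9, the 4 number 1 samples lay above the 16 samples numbered 3 to 6, as for 2.09% of all genes. Eln has this pattern itself, so picking genes by likeness to Eln in the same samples favours it.

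Other genes of elastic fibres and microfibrils were taken from a fixed list of 18. In the 6 pairs of letters 0 of 18 passed the limma threshold, with at most 1 at an unadjusted p under 0.05 in any pair. Between numbers 18 of 18 passed the F test, against 31.5% of all genes, and 8 of 18 had number 1 without overlap above numbers 3 to 6, against 2.09%. In the mean over letters, 15 of the 18 were higher in number 1 than in numbers 3 to 6. The median log2 difference was 0.49 and the lowest -0.24. The 6 with the smallest adjusted p by number were Loxl2, Ltbp2, Fn1, Vcan, Ltbp1 and Efemp2.

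Loxl2, another lysyl oxidase gene, had 2409 to 2617 normalized counts in number 1, 1320 to 2224 in number 2 and 660 to 1162 in numbers 3 to 6, a log2 difference of 1.44 ± 0.14 for number 1 (limma F test by number, adjusted p = 5.78e-07). Ltbp2, a microfibril gene, had 18125 to 20682 in number 1 and 8274 to 12992 in numbers 3 to 6, and a log2 difference of 0.92 ± 0.12. Fn1, the fibronectin gene, and Vcan, the gene of the proteoglycan versican, were above numbers 3 to 6 without overlap in both number 1 and number 2, with log2 differences for number 1 of 0.50 ± 0.20 and 1.15 ± 0.28. Ltbp1 stood at 13372 to 14336 in number 1 and 8602 to 11474 in numbers 3 to 6. Efemp2, the gene of fibulin-4, which brings lysyl oxidase to the fibre, had 2443 to 2509 in number 1, 2630 to 3953 in number 2 and 1650 to 2421 in numbers 3 to 6.

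Enzymes that can cleave elastin were taken from a list of 10. Of these, 7 passed the F test by number, against 31.5% of all genes, and 1 had number 1 without overlap above numbers 3 to 6, against 2.09%. In the mean over letters, 4 were higher in number 1 than in numbers 3 to 6, and the median log2 difference was -0.29. The 6 with the smallest adjusted p by number were Mmp14, Ctss, Mmp7, Mmp12, Mmp2 and Prtn3. Mmp12, the macrophage elastase, had 141 to 211 normalized counts in number 1, 508 to 1797 in number 2 and 44.1 to 305 in numbers 3 to 6, so number 2 was above all others in all 4 letters, A2 included. Ctss, the gene of the macrophage protease cathepsin S, had 8468 to 13321 in number 2 and 4836 to 10675 in numbers 3 to 6, and 4804 to 5049 in number 1. Mmp14, a membrane-bound protease, had 10633 to 13092 in number 2, 8278 to 10986 in number 1 and 5961 to 9106 in numbers 3 to 6. Mmp2, a gelatinase that is also among the genes most like Eln, had 20523 to 25060 in number 1 and 10207 to 15124 in numbers 3 to 6. Mmp7 had at most 2.79 normalized counts in number 1 and 78.6 to 196 in number 2, and Prtn3, a neutrophil protease gene, had 28.8 to 41.2 in number 1 and 28.6 to 78.5 in numbers 3 to 6.

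Regulators of elastin synthesis were a further list. Of its 13 genes of the TGF-beta pathway and other regulators, 9 passed the F test by number, against 31.5% of all genes, and 1 had number 1 without overlap above numbers 3 to 6, against 2.09%. In the mean over letters, 5 were higher in number 1 than in numbers 3 to 6, and the median log2 difference was -0.06. The 6 with the smallest adjusted p by number were Tgfbr1, Igf1, Tgfb2, Igf1r, Tgfb1 and Tgfb3. Tgfb2, a TGF-beta ligand, had 4921 to 6702 normalized counts in number 1 and 3429 to 4486 in numbers 3 to 6, with no overlap, and Tgfb3 had 2102 to 2412 and 936 to 2459. For Tgfb3, A4 at 2459 was the only sample numbered 3 to 6 above the lowest number 1 sample. Tgfb1 was not raised in number 1, at 7432 to 7848 against 6471 to 9900. Tgfbr1, a receptor gene, had 4563 to 4872 in number 1 and 4468 to 7345 in numbers 3 to 6, Igf1 6001 to 8225 and 4946 to 11497, and Igf1r 1989 to 2246 and 1853 to 3047. In the 6 pairs of letters 0 of the 10 enzymes and 0 of the 13 regulators passed, with at most 1 in each list at an unadjusted p under 0.05.

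Markers of the cells that make elastin were read beside these genes. The 10 fibroblast markers, none of which was at 0 in any sample, summed to 380612 to 488292 normalized counts in number 1, 307376 to 407467 in number 2 and 145344 to 252099 in numbers 3 to 6. The median log2 difference of these markers between number 1 and numbers 3 to 6 was 0.51, with 7 of 10 positive and 4 of 10 above numbers 3 to 6 without overlap. The collagen genes Col1a1 and Col1a2 differed by 1.59 and 1.29, while Dcn was at 0.01 and Pdgfra, Pi16 and Tcf21 at -0.08, -0.09 and -0.17. A4 was the highest sample in Dcn and Pi16. The differences of Dcn and Pi16 were lowest in letter A, at -0.38 and -0.71, and highest in C, at 0.35 and 0.77. The 10 smooth muscle and myofibroblast markers summed to 75410 to 90411 in number 1, 51176 to 68197 in number 2 and 50376 to 77039 in numbers 3 to 6. Their median log2 difference was 0.66 for number 1, with 10 of 10 positive and 2 of 10 above numbers 3 to 6 without overlap. The sum of 77039 was that of A4, and the next highest in numbers 3 to 6 was 67735 in C5. In Acta2, Tagln and Myh11, A4 was the only sample numbered 3 to 6 above the lowest number 1 sample. The part of the fibroblast, smooth muscle and myofibroblast markers in the elastic fibre result was not tested.

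Markers of other cell types had these levels. The 8 endothelial markers summed to 304735 to 327349 in number 1, 183151 to 265687 in number 2 and 230580 to 313751 in numbers 3 to 6, and the median log2 difference for number 1 was 0.17. The 8 alveolar epithelial markers had a median of 0.01, the 6 cartilage markers 0.01, the 5 mesothelial markers 0.24, and the 7 leukocyte markers -0.42. Of the 7 genes of proliferation and growth, the cell cycle genes Mki67, Ccnb1, Cdk1 and Top2a had log2 differences of 0.89, 0.90, 1.08 and 1.18, and the imprinted genes Dlk1, Igf2 and H19 of -0.01, -0.13 and -0.21. Among the 6 cartilage markers Acan, Col2a1 and Matn1 were at or near 0 in at least 1 sample. The 7 skeletal muscle genes had a median of -0.39, the 6 squamous genes -0.42 and the 6 cardiac muscle genes 0.49, the last with sums of 1353 to 9231 in number 1 and 577 to 58832 in numbers 3 to 6. In number 2, the leukocyte markers summed to 23351 to 47591, against 15462 to 24677 in number 1 and 15756 to 31920 in numbers 3 to 6, so the ranges overlapped. Whether these levels bear on the split of samples numbered 2 in Eln was not tested.

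**Figure D4:**
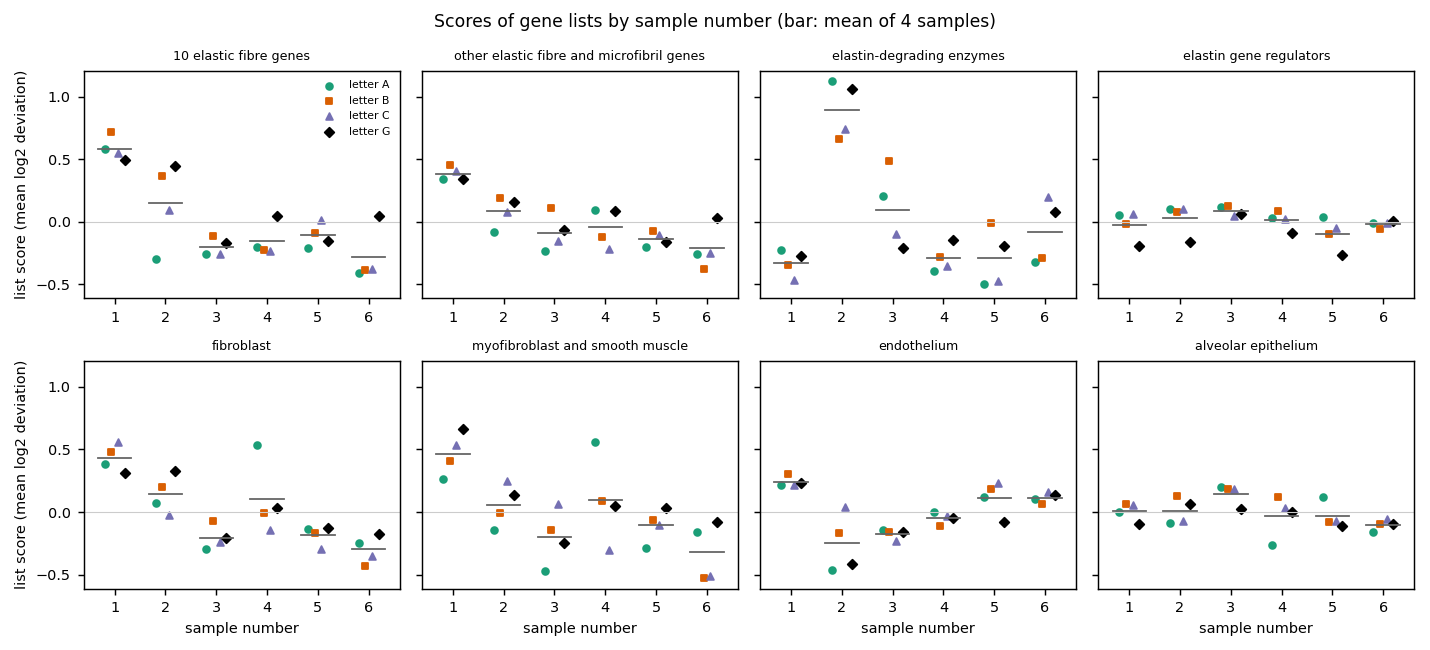
Score of 8 gene lists in the 24 samples, by sample number (x axis) and letter (colour and marker), computed per gene as the log2 value less that gene's average in the 24 samples and then averaged over the list, with bars at the mean of the 4 samples of a number. The score of the 10 elastic fibre genes is between 0.50 and 0.71 in number 1 and at most 0.05 in numbers 3 to 6. The score of the elastin-degrading enzymes is highest in number 2, at 0.66 to 1.13. Not every enzyme follows that score, and their summed normalized counts overlap between number 1 (55440 to 68293) and number 2 (58457 to 67658).

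As a score over the 10 genes, the mean was 0.59 ± 0.09 in number 1, 0.15 ± 0.34 in number 2, -0.20 ± 0.07 in number 3, -0.15 ± 0.14 in number 4, -0.11 ± 0.10 in number 5 and -0.28 ± 0.22 in number 6 (SD, n = 4). The SD of number 2 was the largest, with A2 at -0.30, C2 at 0.09, B2 at 0.37 and G2 at 0.44. Numbers 3 to 6 overlapped each other. In number 6, G6 stood at 0.04, while A6, B6 and C6 lay between -0.41 and -0.37.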

How the data were processed

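The values that the authors deposited are a signal in 1 table, read counts per gene adjusted toward a common library size, for 30667 genes and 24 samples. The aligner STAR and the mouse genome build GRCm38 are listed, per the submitters' processing notes, with no role given, although the samples are from rat; reads that match mouse sequence poorly could be lost, so levels of different genes were not compared. Counting, normalization and annotation are not given in the sources used here. Gene symbols were used as deposited, and 10 of the 10 genes matched the rat RefSeq gene table (assembly GRCr8).

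Values were analysed as log2(value + 1) with limma-trend (limma 3.58.1, R 4.3.3), for genes with a mean of at least 0.5, which all 30667 passed. Letter contrasts and their F test came from 1 fit to 24 samples. The number was tested by an F test with the letter in the model. P-values are two-sided, adjusted by Benjamini-Hochberg over all genes, with a threshold of 0.05. The script was tested on simulated data. Differences from numbers 3 to 6, list scores and correlations are descriptions.

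Equal numbers were checked by correlating deviations from letter means over the 21922 genes that averaged 10 or more. All 6 pairs exceeded 0.1 in B against A (0.17 to 0.59) and C against B (0.13 to 0.60). In each other contrast at least 1 pair did not. Samples of unequal number were not correlated for comparison, so the check cannot show that equal numbers are paired.

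The members and lists were chosen with earlier results of these data known. Besides the 10 genes, the text names at most 6 genes of each elastic fibre, enzyme or regulator list by smallest adjusted p, and the 10 genes most like Eln and most like the score and the 5 least like Eln; 1 gene under this rule is not reported here. Alternatives were another pseudocount (0.1), quantile normalization, 75th percentile scaling, other filters, each sample left out, A4 and B4 left out, robust empirical Bayes, sample weights, fits to 12 samples and the number as a block.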

Additional observations from a re-analysis of the deposited data

Results flagged for a closer look

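A value was picked out when a sample's gap to the nearest other sample of its letter, as a share of the range of the 6 samples, exceeded Dixon's critical value. This held for 8 of 44 groups of values, all in samples numbered 1. Chance picks out about 1 in 20 independent groups, but these genes vary together and were chosen with their values by number known, so the count has no chance reference. In A1 they were Eln at 202776 normalized counts (next sample 78243), Fbn1 at 27587 (13887), Fbn2 at 48.3 (24.6), Fbln5 at 11714 (7677), Lox at 7673 (4950) and the score over the 10 genes at 0.5826 (next sample -0.20). In B1 Fbn2 was at 69.7 (33.3), and in C1 Eln was at 217504 (92010). After log2 transformation only Fbn2 in A1 and in B1 would still be picked out among the single genes.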

How the results depend on the processing

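No gene of the 10 passed the threshold in any pair of letters or over the 4 letters under any of the alternatives run, 33 for the F test and 34 for each pair. The smallest adjusted p of any gene in a pair was 0.332 without the number as a block (Lox in G against A, without A1), and 0.061 with it. With the number as a replicate block 0 of 10 passed in each of the 6 pairs of letters. Over the whole table the genes called in G against A rose from 2 to 391 (1.27%) with the block. In G against B they rose from 1 to 2 and in G against C from 2 to 11. By number, 9 of 10 passed without A1, where Fbln5 had an adjusted p of 0.0518, and 10 in the other 31 alternatives. The score of number 1 ranged from 0.57 to 0.64 when 1 sample was left out, and that of number 2 from 0.08 to 0.29. Of the differences between number 1 and numbers 3 to 6, that of Ltbp4 moved by more than its SD, to 0.01 under quantile normalization; the cause was not tested. Sequencing depth is unknown, so what it limits could not be worked out.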

Other observations

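The genes that ran most opposite to Eln over the 24 samples were Larp6 (r = -0.86, Spearman's rho = -0.83), whose product binds collagen messenger RNAs, Creg1 (r = -0.85), the amino acid transporter gene Slc43a1 (r = -0.84), Ihh (r = -0.83), which encodes the signalling protein Indian hedgehog, and Rps6-ps4 (r = -0.83), a pseudogene whose counts may be shared with its parent gene. Larp6 had 13.1 to 36.5 normalized counts in number 1 and 46.1 to 136 in numbers 3 to 6, and Ihh had 54.8 to 74.5 and 105 to 199. Both were without overlap, as were 1.47% of all genes in that direction, and the choice of genes opposite to Eln favours this. Among the 16 samples numbered 3 to 6, r with Eln was -0.65 for Larp6, -0.63 for Ihh and -0.24 for Creg1.

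The 10 genes most like the score over the elastic fibre genes were Fstl1 (r = 0.96), Bgn, Nckap5l, Col6a1, Nid1, Col6a2, Pcdh17, Sparc, Mmp2 and Col5a2 (r = 0.93), and 5 of them were also among the 10 most like Eln. Fstl1, a secreted glycoprotein gene, had 9544 to 11392 normalized counts in number 1 and 4893 to 6267 in numbers 3 to 6. Within those 16 samples its r with the score was 0.82, and that of Sparc was 0.31.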
